A study of Mus musculus with 12 samples.

Results

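Interferons are secreted signals best known from antiviral defence, and lungs inflamed by allergen also carry cells that make and answer them. The interferon genes described here are 25 of the 734 endogenous genes on a NanoString panel for innate immunity, an assay in which coloured barcodes on hybridised probes are counted. They are all panel genes whose symbols begin with Ifi, Ifn, Isg, Oas, Gbp, Irf or Stat, or with Mx and a digit, plus Cxcl9, Cxcl10, Cxcl11, Rsad2, Bst2 and Usp18 where present. Irf4, Irf8 and Stat6 were left out. No endogenous gene of the panel had a symbol beginning with Oas or Gbp, and none was named Rsad2 or Bst2. By role they comprise 3 ligands, 3 receptor chains, 5 STAT transducers, 5 interferon regulatory factors, 6 induced genes and 3 chemokines.

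RNA came from 1 lung lobe of littermate mice, in 12 libraries. Mice labelled KO_DRA (n = 5 libraries) were Chil4-deficient, described in the labels both as knockdown and as KO, and received DRA allergens. Mice labelled B6_DRA (n = 5 libraries) were wild type for Chil4 and received the same allergens. Mice labelled B6_PBS (n = 2 libraries) were wild type and received PBS. All received intranasal doses for 8 weeks, 2 in each week. Neither the meaning of DRA nor how Chil4 was altered is given in the labels, which also hold no ages, and Chil4-deficient mice given PBS were not analysed here.

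Type I interferons, such as the products of Ifna1 and Ifnb1, bind a receptor of the Ifnar1 and Ifnar2 chains, and interferon gamma, the product of Ifng, binds a receptor that includes Ifngr1. Both receptors activate kinases that phosphorylate STAT proteins. STAT proteins together with IRF9 then bind the interferon-stimulated response element, while STAT dimers bind the gamma-activated site. Isg15, Usp18, Mx1, Mx2, Irf7 and the Ifit family are textbook targets of type I interferon, and Cxcl9 is a textbook target of interferon gamma. RefSeq annotates Mx1, Mx2 and Cxcl11 as transcribed pseudogenes in the mouse reference strain, so for these genes the panel reads a transcript with no known functional product there.

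In B6_DRA, Isg15 and Ifit1bl1 stood below the PBS level and passed the test described below, while Cxcl10 stood above it and did not pass. Upstream sequences of these 3 genes, known to answer to the same pathway, are shown because of these opposite placings. They are the 250 bases before the RefSeq start in GRCm38.p6, 5′ to 3′, and capitals mark matches to GAAA, any 2 bases and GAAA, a core of the interferon-stimulated response element, or to its reverse complement (TTTC, any 2 bases and TTTC).
Isg15 (chr4:156200819-156201068, minus strand): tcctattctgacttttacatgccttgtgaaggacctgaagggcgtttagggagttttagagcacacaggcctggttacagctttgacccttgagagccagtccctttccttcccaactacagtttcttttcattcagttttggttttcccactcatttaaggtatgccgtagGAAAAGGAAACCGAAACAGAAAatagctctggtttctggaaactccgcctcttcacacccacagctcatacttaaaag
Ifit1bl1 (chr19:34601969-34602218, minus strand): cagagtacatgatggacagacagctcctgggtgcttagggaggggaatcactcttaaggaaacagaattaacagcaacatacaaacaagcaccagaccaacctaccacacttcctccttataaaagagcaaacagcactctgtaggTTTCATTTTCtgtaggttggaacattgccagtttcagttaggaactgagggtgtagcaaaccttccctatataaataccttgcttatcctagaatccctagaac
Cxcl10 (chr5:92348890-92349139, minus strand): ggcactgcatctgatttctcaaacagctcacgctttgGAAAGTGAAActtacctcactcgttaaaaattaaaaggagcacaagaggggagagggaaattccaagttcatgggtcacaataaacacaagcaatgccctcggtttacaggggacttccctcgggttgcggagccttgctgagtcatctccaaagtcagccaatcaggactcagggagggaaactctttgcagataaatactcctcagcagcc

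Isg15 held 3 overlapping matches, between 78 and 57 bases upstream of its start. Ifit1bl1 has 2 listed starts and held 1 match before each, here between 104 and 95 bases upstream. Cxcl10 held 1 match between 213 and 204 bases upstream. Of 20 interferon genes with such a window, 7 held the motif in at least 1 of their windows (Cxcl10, Ifit1bl1, Ifit1bl2, Ifna1, Irf2, Isg15 and Stat4). That came to 8 of 26 windows, or 30.8%, against 978 of all 32851 windows of that length, or 2.98%. Of these 8, 2 are the windows of Ifit1bl1, whose sequences around the match are nearly the same. A share by gene was not counted over all genes. The genes were chosen by interferon-related symbols, so the shares describe that choice and not the libraries. TTCNNNGAA, the core of the gamma-activated site and its own reverse complement, lay upstream of 5 of the 20 (Ifna1, Ifnar2, Ifng, Irf1 and Irf2). Those were 5 of the 26 windows, or 19.2%, against 7.02% of all windows. A match is a run of letters, and no binding was measured. The windows of Irf5, Cxcl9, Irf7 and Ifngr1 held neither run of letters. Usp18, Mx1, Mx2 and Cxcl11 had no window to search.

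Values by library are the scaled counts deposited by the authors, which are raw counts times 1 factor per library. Folds and tests come from the raw counts with edgeR, with adjustment over all 665 endogenous genes tested and a threshold of 0.05. Totals per library ran from 320290 to 673201 counts, and a count up to 2 SD above the mean negative control of its library was taken as background (5.58 to 11.7 counts). The targeted gene, Chil4, gave 111850, 8221, 5676, 24313 and 12198 raw counts in KO_DRA 8 to 12, against 89957, 56481, 13020, 79387 and 60176 in B6_DRA 3 to 7 and 5121 and 4406 in B6_PBS. It was not called between the genotypes (log2 fold change -0.92, edgeR adjusted p = 0.53). Every KO_DRA library stood above both B6_PBS libraries, and KO_DRA 11 stood above B6_DRA 5. The library labelled KO_DRA 8, with the highest count of all, goes most against its label if the probe reads the altered part. The sources used here do not state which part it reads. Cross-reading of the probe with Chil3 (log2 fold change -0.86 between the genotypes) was not tested. Counts for KO_DRA are therefore given with and without the library labelled KO_DRA 8. Cdh5, Flt1, Tek and Thbd of endothelium and Cdh1 of epithelium were above background in every group, while Sftpc and Scgb1a1, which define lung epithelium, were not analysed here. The labels do not state that each library is a different animal. The p-values set group differences against the spread between libraries, which may not be that between animals. In whole lung, fewer cells of a type and less RNA per cell cannot be told apart.

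The interferon ligands were at or near background. Ifnb1 lay above background in 0 of 12 libraries, with 6, 6, 4, 7 and 3 raw counts in KO_DRA, 8, 5, 3, 3 and 3 in B6_DRA and 2 and 4 in B6_PBS. Ifng, made chiefly by T and NK cells, gave 5, 7, 7, 6 and 4 raw counts in KO_DRA, 4, 7, 2, 5 and 1 in B6_DRA and 1 and 7 in B6_PBS. It was above background in 2 of 5 KO_DRA, 0 of 5 B6_DRA and 1 of 2 B6_PBS libraries. Ifna1, which belongs to a family of near-identical genes that a probe may not separate, gave 12, 6, 6, 7 and 5 raw counts in KO_DRA, 6, 6, 3, 5 and 7 in B6_DRA and 2 and 3 in B6_PBS. It passed background in 1 KO_DRA and 1 B6_DRA library. Cxcl11, a chemokine that binds CXCR3, gave 9, 8, 8, 8 and 5 raw counts in KO_DRA, 7, 3, 4, 10 and 2 in B6_DRA and 3 and 6 in B6_PBS. These 4 genes did not pass the filter on low counts and are given no fold here, and the other 21 were tested. With no filter all 25 were tested, and none of these 4 was called in any comparison. At this depth a difference in ligand RNA between groups was not detectable.

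The first comparison is that of allergen with PBS in wild type mice. In B6_DRA 4 of the 6 interferon-induced genes fell with Irf7 and Ifngr1, while the chemokine gene Cxcl9 and the factor gene Irf5 rose. Of the 21 tested genes 2 rose (Cxcl9 and Irf5) and 6 fell (Isg15, Usp18, Mx2, Ifit1bl1, Irf7 and Ifngr1), which is 8 of 21 called where 41.8% of all tested genes were. Of all tested genes 24.1% rose and 17.7% fell. The share that rose was below the background and the share that fell above it, and no test of that difference was made. The median log2 fold change of the 21 was -0.25, beside 0.01 over all 665 genes.

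Among the induced genes, Isg15 encodes a ubiquitin-like protein that is joined to other proteins. Its scaled counts were 129, 134, 159, 139 and 133 in B6_DRA 3 to 7, against 173 and 281 in B6_PBS 1 and 2. All 5 allergen libraries lay below both PBS libraries, which themselves differed widely. Isg15 averaged 139 ± 11.7 in B6_DRA (SD, n = 5) and 227 ± 76.0 in B6_PBS (SD, n = 2), and was 1.75-fold lower (log2 fold change -0.81, SE 0.212, edgeR adjusted p = 0.0204).

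Usp18 encodes the protease that removes ISG15 and also damps signalling at the type I receptor. It gave 44.3, 50.1, 63.9, 59.2 and 58.9 scaled counts in B6_DRA, against 78.5 and 80.7 in B6_PBS. The groups did not overlap, and Usp18 was 1.54-fold lower (log2 fold change -0.62, SE 0.218, edgeR adjusted p = 0.0403). Mx2, a dynamin-like GTPase gene, gave 26.4, 22.8, 31.9, 19.7 and 16.8 in B6_DRA, against 38.8 and 46.1 in B6_PBS. It was 1.91-fold lower (log2 fold change -0.93, SE 0.288, edgeR adjusted p = 0.0306), again with no overlap.

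Ifit1bl1, a member of the family of interferon-induced proteins with tetratricopeptide repeats, gave 36.8, 34.3, 37.3, 38.2 and 33.7 scaled counts in B6_DRA, against 63.0 and 67.5 in B6_PBS. Its B6_DRA values spanned a narrow range well under both PBS libraries. It was 1.93-fold lower (log2 fold change -0.95, SE 0.228, edgeR adjusted p = 0.0171), the smallest p of the 21 genes. Its paralogue Ifit1bl2 was close to background, with 14.1, 7.03, 8.51, 12.3 and 2.80 scaled counts in B6_DRA, against 12.9 and 9.88 in B6_PBS, and did not pass (log2 fold change -0.41, SE 0.425, edgeR adjusted p = 0.431). The probes of these paralogues are not described in the sources used here, so cross-reading between them was not tested. Mx1, the neighbour of Mx2, gave 42.1 to 80.9 in B6_DRA, against 54.4 to 57.8 in B6_PBS, and did not pass (log2 fold change 0.0945, 95% interval -0.38 to 0.56, edgeR adjusted p = 0.738). Mx1 and Mx2 were not tested against each other. In all, 4 of 6 induced genes fell and none rose, beside 17.7% and 24.1% of all genes.

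**Figure D1:**
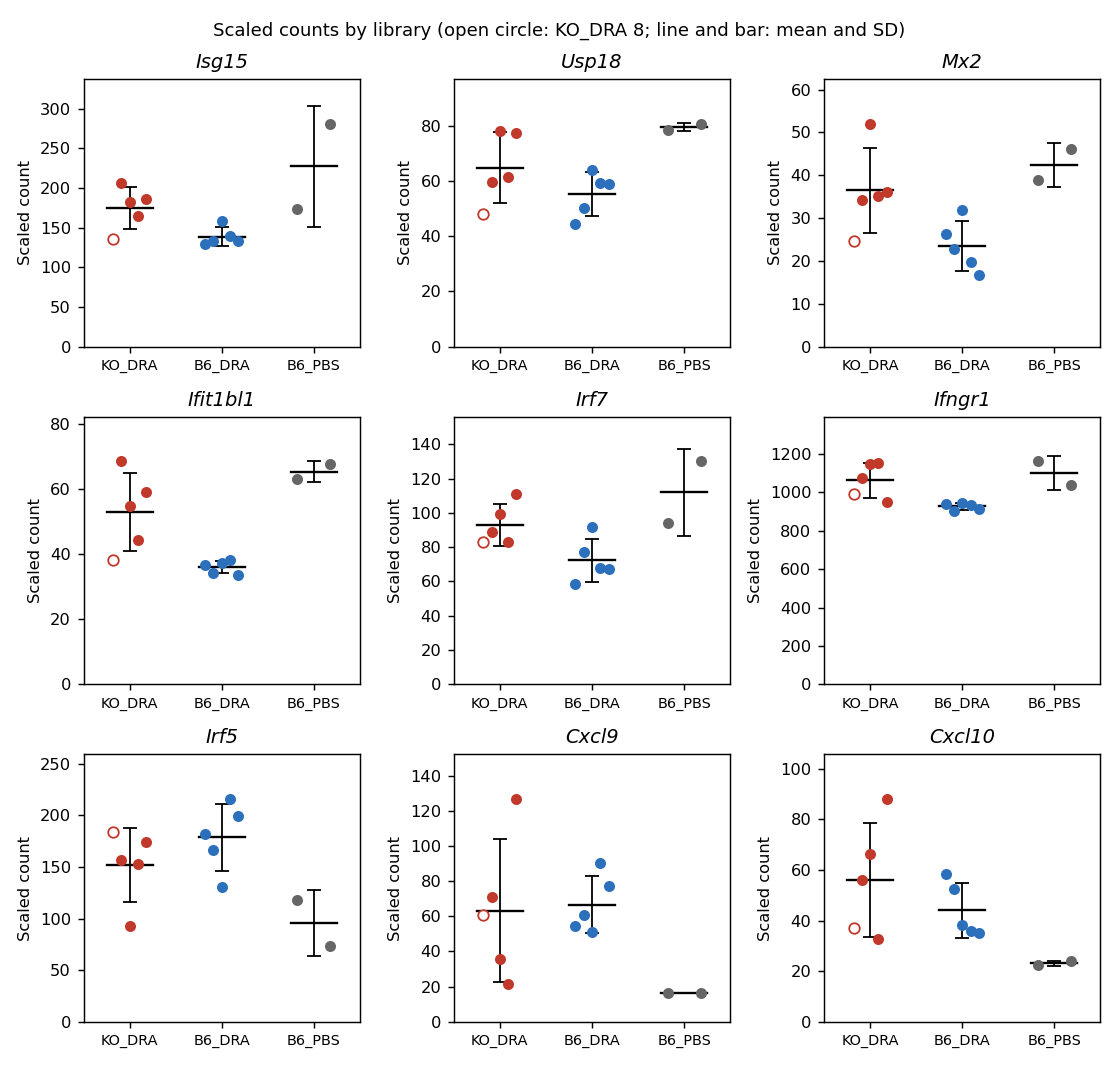
Scaled counts (y axis, from 0) of 9 interferon genes in each library, by group (x axis), with the mean and SD as line and bar and the library labelled KO_DRA 8 as an open circle. For Isg15, Usp18, Mx2, Ifit1bl1, Irf7 and Ifngr1 the B6_DRA points lie below both B6_PBS points, and for Irf5, Cxcl9 and Cxcl10 above them.

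Of the regulatory factors, Irf7, the inducible factor that amplifies type I interferon production, gave 58.4, 77.3, 91.5, 67.8 and 67.3 scaled counts in B6_DRA, against 94.0 and 130.1 in B6_PBS. All B6_DRA values were lower, although B6_DRA 5 came close to B6_PBS 1, and Irf7 was 1.65-fold lower (log2 fold change -0.72, SE 0.206, edgeR adjusted p = 0.0253). Irf5, a factor of inflammatory macrophages, went the other way. It gave 182, 166, 131, 216 and 199 scaled counts in B6_DRA, against 118 and 73.3 in B6_PBS, with no overlap, and was 1.75-fold higher (log2 fold change 0.81, SE 0.277, edgeR adjusted p = 0.0378). Irf1, the interferon gamma-responsive factor, had the next smallest p and missed the threshold. It averaged 779.8 ± 66.0 in B6_DRA (SD, n = 5) and 965 ± 91.6 in B6_PBS (SD, n = 2; log2 fold change -0.40, SE 0.152, edgeR adjusted p = 0.0532). The constitutively made Irf3 had a log2 fold change of -0.23 (95% interval -0.47 to 0.00574), and Irf2, an antagonist of Irf1, one of -0.25 (95% interval -0.56 to 0.048).

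Of the 3 receptor chains 1 fell, beside 17.7% of all genes. Ifngr1, the ligand-binding chain for interferon gamma, gave 939, 903, 944, 936 and 913 scaled counts in B6_DRA, against 1162 and 1036 in B6_PBS. Its 5 allergen libraries lay within a narrow range below both PBS libraries, and the gene was 1.26-fold lower (log2 fold change -0.34, SE 0.108, edgeR adjusted p = 0.0326). For the type I receptor, Ifnar1 had a log2 fold change of -0.18 (95% interval -0.49 to 0.14) and Ifnar2 one of 0.10 (95% interval -0.0868 to 0.29). Neither interval reached the value estimated for Isg15.

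None of Stat3, Stat4, Stat5a and Stat5b passed the test. Stat4, which serves interleukin 12 in lymphocytes, had the largest estimate of these 4, with 19.8, 17.6, 21.3, 24.7 and 22.4 scaled counts in B6_DRA, against 15.5 and 14.0 in B6_PBS (log2 fold change 0.41, SE 0.244, edgeR adjusted p = 0.222). Stat3, a transducer of interleukin 6 and related cytokines, had a log2 fold change of -0.0214 (95% interval -0.22 to 0.18). Stat5a and Stat5b, adjacent genes that serve interleukin 2 and growth factors, had values of 0.21 and -0.32, with adjusted p of 0.181 and 0.101 by edgeR.

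Cxcl9 and Cxcl10 encode chemokines that draw T and NK cells through CXCR3. Cxcl9 gave 54.7, 60.6, 51.1, 90.0 and 77.1 scaled counts in B6_DRA, against 16.4 and 16.5 in B6_PBS. Every allergen library stood well above both PBS libraries, and Cxcl9 was 3.76-fold higher (log2 fold change 1.91, SE 0.600, edgeR adjusted p = 0.0308). Cxcl10 gave 58.4, 52.7, 38.3, 35.8 and 35.1 scaled counts in B6_DRA, against 22.4 and 23.9 in B6_PBS. These groups did not overlap either, but the test was not passed (log2 fold change 0.84, SE 0.398, edgeR adjusted p = 0.102).

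Counted by overlap alone, all B6_DRA libraries lay below both B6_PBS libraries for 9 of the 25 genes, against 19.5% of all 734 genes, and above them for 7, against 33.2%. Beside those already named, Irf1, Irf3 and Stat5b were lower and Ifnar2, Stat4, Stat5a and Ifna1 higher, with Ifna1 at background in B6_PBS.

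The 8 calls rest on both PBS libraries, since without B6_PBS 1 or B6_PBS 2 none of the 21 passed (smallest adjusted p = 0.0764 and 0.0827 by edgeR, with 7 and 4 genes at an unadjusted p under 0.05), as none of all genes did (190 and 244 of 672 at an unadjusted p under 0.05). Without B6_DRA 3, 4, 5, 6 or 7 the calls numbered 2, 4, 10, 3 and 3 of 21, where 19.2%, 26.5%, 52.1%, 23.8% and 20.5% of all genes were called. Isg15 and Ifit1bl1 were among the calls each time. Without B6_PBS 2 the log2 fold changes were -0.42 for Isg15, -0.48 for Irf7 and 0.49 for Irf5, each smaller in size by more than 1.5 times. With library size alone, under which the median of all genes was -0.63, 0 rose and 11 fell. Cxcl9 then had a log2 fold change of 1.23 and Irf5 one of 0.13 (adjusted p = 0.0914 and 0.727 by edgeR), both above that median. Of all genes 57 then rose and 222 fell, against 160 and 118 with TMM. With housekeeping scaling, the authors' factors or limma on the scaled values, Usp18 and Ifngr1 did not pass.

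**Figure D2:**
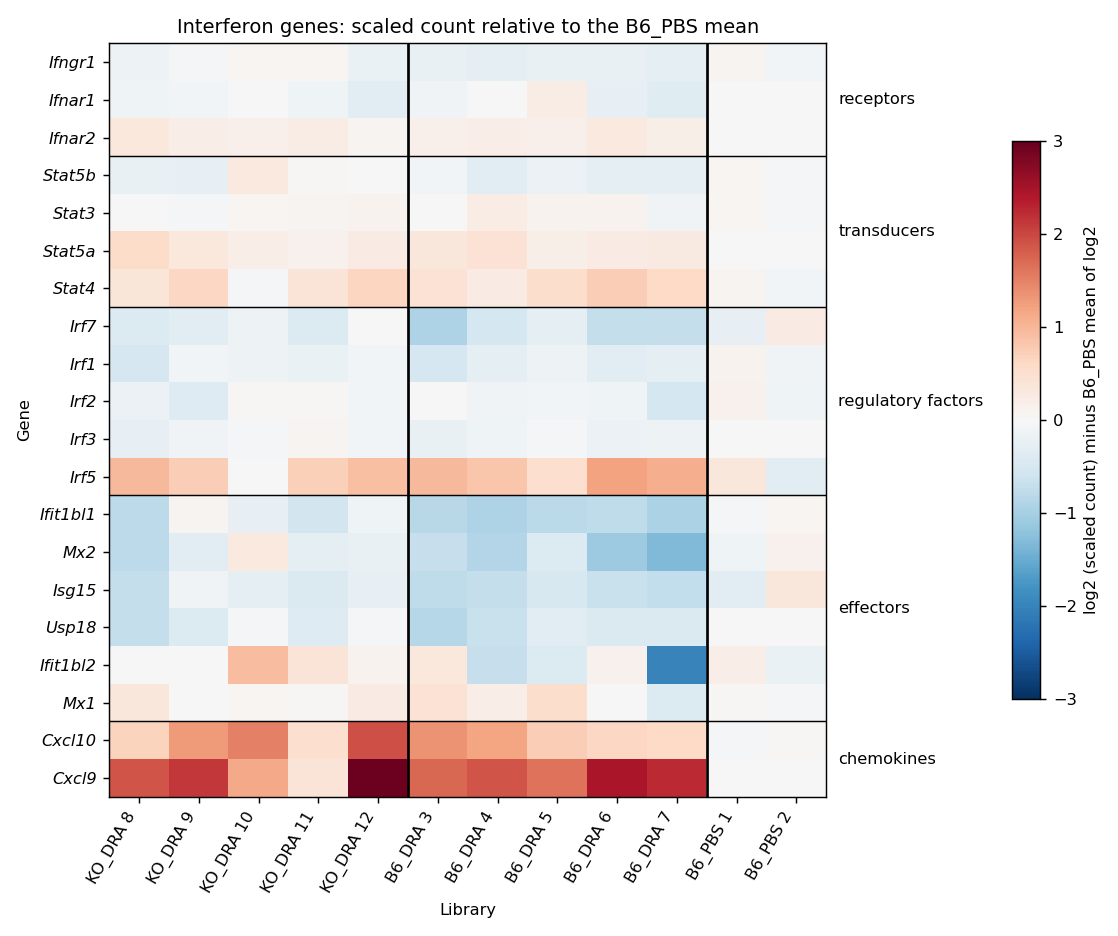
Each cell is log2 of a gene's scaled count in 1 library minus the mean of that value over B6_PBS 1 and 2, for 20 of the 21 tested genes (rows, by role) in 12 libraries (columns). Ifit1bl1, Mx2 and Isg15 are blue across B6_DRA and stand higher on the scale in KO_DRA 9 to 12, and Cxcl9 and Cxcl10 are red in all 10 allergen libraries.

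Outside the 25, of 8 tested genes of class I antigen presentation, an interferon-responsive process, 4 rose in B6_DRA and none fell, beside 24.1% and 17.7% of all genes. The class I heavy chain gene H2-K1 averaged 11212 ± 1050.0 scaled counts in B6_DRA (SD, n = 5) and 6911 ± 298 in B6_PBS (SD, n = 2; log2 fold change 0.60, adjusted p = 0.0187 by edgeR). H2-D1, H2-T23 and Psmb8, an immunoproteasome subunit gene, had log2 fold changes of 0.52, 0.55 and 0.48. Psmb9, Tap1, Tap2 and Tapbp did not pass.

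Of 6 tested genes of nucleic acid sensing, 2 rose and 1 fell, shares near those over all genes. Tmem173, which encodes the adaptor STING, averaged 94.1 ± 17.4 in B6_DRA (SD, n = 5) and 41.2 ± 5.81 in B6_PBS (SD, n = 2; log2 fold change 1.09, adjusted p = 0.0171 by edgeR). Tlr7, a receptor for single-stranded RNA, had a log2 fold change of 0.91 and Tlr3, a receptor for double-stranded RNA, one of -0.37. Of 4 inducers of interferon gamma, only Il18r1, a chain of the interleukin 18 receptor, passed, lower (log2 fold change -0.59, adjusted p = 0.0378 by edgeR), and none of Jak3, Socs1 and Socs3 passed (smallest adjusted p = 0.092 for Socs1 and 0.0995 for Jak3). Of the factors left out of the 25, Irf4, a factor of alternatively activated macrophages and lymphocytes, rose (log2 fold change 1.82, adjusted p = 0.0163 by edgeR), while Irf8 and Stat6 did not pass.

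Cell type markers moved in the same libraries. All 4 tested endothelial markers (Cdh5, Flt1, Tek and Thbd) fell, with summed scaled counts of 3127 to 5616 in B6_DRA and 6767 to 8334 in B6_PBS. Cdh1 of epithelium, the 1 marker tested for it, fell too, with 1133 to 1388 in B6_DRA and 1677 to 1699.9 in B6_PBS. Of 9 tested genes that mark monocytes or interstitial macrophages 7 rose, with sums of 3701 to 5884 in B6_DRA and 1944 to 2015 in B6_PBS. Of 4 T cell markers 1 rose (Icos), with sums of 159.9 to 217 in B6_DRA and 99.7 to 117 in B6_PBS. None of 2 NK cell markers (Gzma and Klrk1; 192 to 375 in B6_DRA and 363 to 444 in B6_PBS) passed. Of 6 plasmacytoid dendritic cell markers, the 3 on the panel (Il3ra, Klk1 and Runx2; 125 to 160.3 in B6_DRA and 115 to 117 in B6_PBS) did not pass either. Of the other lists, eosinophil markers rose in 3 of 4, alveolar macrophage markers in 2 of 6 and neutrophil markers in 0 of 4, and 1 of 2 fibroblast markers fell. Their part in the interferon gene values was not tested.

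The second comparison set Chil4-deficient against wild type mice, both given allergens. It shares the B6_DRA libraries with the first, so the 2 sets of values are not independent. None of the 21 genes passed, as none of all 665 did (0%). At an unadjusted p under 0.05 stood 4 of the 21 (Ifit1bl1, Mx2, Ifngr1 and Irf7) and 84 of all genes, and DESeq2 and limma-voom called none of the 21 either (1 and 0 of all genes). The estimate was above 0 for 15 and below for 6, with a median log2 fold change of 0.13, beside 0.01 over all genes.

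Ifit1bl1 had the smallest p of the 21. It gave 38.1, 68.5, 54.7, 44.3 and 59.2 scaled counts in KO_DRA 8 to 12, against 33.7 to 38.2 in B6_DRA. KO_DRA 9 to 12 lay above every B6_DRA library and the library labelled KO_DRA 8 among them (log2 fold change 0.59, SE 0.184, 95% interval 0.19 to 0.99, edgeR adjusted p = 0.321). Mx2 gave 24.6, 34.2, 52.0, 35.2 and 36.2 in KO_DRA, against 16.8 to 31.9 in B6_DRA, with the same placing of that library (log2 fold change 0.65, SE 0.232, 95% interval 0.14 to 1.15, edgeR adjusted p = 0.321). Isg15 gave 135, 206, 182, 165 and 186 in KO_DRA, against 129 to 159 in B6_DRA (log2 fold change 0.36, SE 0.168, 95% interval -0.00511 to 0.73, edgeR adjusted p = 0.378). Again KO_DRA 9 to 12 were above all B6_DRA libraries and the library labelled KO_DRA 8 was not. The share of all genes placed this way was not counted. Without that library 18.1% of all 664 genes tested passed, 4.52% of them higher in KO_DRA as a share of all genes.

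Usp18 gave 48.1, 59.5, 78.0, 61.3 and 77.3 scaled counts in KO_DRA, against 44.3 to 63.9 in B6_DRA, and the groups overlapped in KO_DRA 8, 9 and 11 (log2 fold change 0.26, SE 0.173, 95% interval -0.12 to 0.63, edgeR adjusted p = 0.477). Ifit1bl2, near background, gave 11.2, 11.4, 21.5, 14.8 and 12.1 in KO_DRA, against 2.80 to 14.1 in B6_DRA (log2 fold change 0.66, SE 0.328, 95% interval -0.0533 to 1.38, edgeR adjusted p = 0.383). Mx1 had 55.4 to 70.5 in KO_DRA and 42.1 to 80.9 in B6_DRA (log2 fold change -0.034, 95% interval -0.39 to 0.32).

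Ifngr1 was the 1 gene of the 25 whose groups did not overlap, against 0.545% of all genes higher and 0.681% lower without overlap. It gave 991, 1075, 1146, 1151 and 952 scaled counts in KO_DRA, against 939, 903, 944, 936 and 913 in B6_DRA, and the lowest KO_DRA library stood just above the highest B6_DRA library (log2 fold change 0.22, SE 0.0833, 95% interval 0.0341 to 0.40, edgeR adjusted p = 0.328). Irf7 gave 82.9, 88.8, 99.6, 82.9 and 111 in KO_DRA, against 58.4 to 91.5 in B6_DRA (log2 fold change 0.38, SE 0.163, 95% interval 0.0253 to 0.74, edgeR adjusted p = 0.35), and Irf5 gave 184, 157, 92.4, 153 and 174 in KO_DRA, against 131 to 216 in B6_DRA (log2 fold change -0.22, SE 0.200, 95% interval -0.65 to 0.22, edgeR adjusted p = 0.555). Both overlapped. Irf1, Irf2, Irf3, Ifnar1, Ifnar2, Stat3, Stat4, Stat5a and Stat5b had log2 fold changes between -0.0716 (Stat4) and 0.23 (Stat5b).

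The chemokines spread widely among KO_DRA libraries. Cxcl9 gave 60.5, 70.9, 35.9, 21.6 and 127 scaled counts in KO_DRA, against 51.1 to 90.0 in B6_DRA. KO_DRA 12 was the highest and KO_DRA 11 the lowest of the 10 allergen libraries, and the interval was wide (log2 fold change -0.0437, SE 0.388, 95% interval -0.89 to 0.80, edgeR adjusted p = 0.968). Cxcl10 gave 37.0, 56.2, 66.4, 32.9 and 88.1 in KO_DRA, against 35.1 to 58.4 in B6_DRA, with the same 2 libraries at the ends (log2 fold change 0.37, SE 0.280, 95% interval -0.24 to 0.98, edgeR adjusted p = 0.504).

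The count turned on the library labelled KO_DRA 8. Without it, Ifit1bl1 (log2 fold change 0.71, adjusted p = 0.0344 by edgeR), Mx2 (0.77, adjusted p = 0.0403) and Ifngr1 (0.26, adjusted p = 0.0462) passed higher and none passed lower. That is 3 of 21, where 18.1% of all 664 genes tested passed, 4.52% higher and 13.6% lower. Isg15 then had a log2 fold change of 0.46 with an adjusted p of 0.0587 by edgeR, and Irf7 0.44 with 0.0841. The choice of that library followed a look at its values. Leaving out any other single library of these groups gave 0 calls among the 21.

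Within groups, most of the induced genes had the same libraries at their ends. Of the 5 induced genes above background in every library, 4 were lowest in the library labelled KO_DRA 8, which had the highest Chil4 count of all. The other, Mx1, was highest there. In B6_DRA, 4 of the 5 were highest in B6_DRA 5, which had the lowest Chil4 count of its group. In the same group 3 were lowest in B6_DRA 7, whose Chil4 count (60176) was in the middle of the group. Of all 20 interferon genes above background in every library, 6 were lowest and 4 highest in the library labelled KO_DRA 8. In B6_DRA 5, 10 of the 20 were highest and 4 lowest. Shares over all genes of the panel were not counted, and a link to Chil4 was not tested.

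Markers of endothelium, epithelium and NK cells were placed in these libraries much as most of the induced genes were. Summed endothelial markers gave 3382, 5208, 7105, 5587 and 5040.1 scaled counts in KO_DRA 8 to 12, against 3632, 3753, 5616, 3989 and 3127 in B6_DRA 3 to 7. The lowest KO_DRA sum was that of the library labelled KO_DRA 8 and the highest B6_DRA sum that of B6_DRA 5. Cdh1 of epithelium gave 1225 in the library labelled KO_DRA 8 and 1388 in B6_DRA 5, again the lowest and highest of their groups. The NK cell sum was placed the same way, with 172 and 375. Summed markers of monocytes and interstitial macrophages gave 5421, 3293, 2647, 3914 and 3839.8 in KO_DRA, against 5042, 5001, 3701, 5884 and 4783 in B6_DRA, with the same libraries at the opposite ends. Alveolar macrophage and eosinophil sums had them there too. They gave 164377 and 1636 in the library labelled KO_DRA 8, and 15863.5 and 695 in B6_DRA 5. Not all marker lists had both libraries at their ends. The neutrophil sum was lowest of KO_DRA in the library labelled KO_DRA 8 (1675) but highest of B6_DRA in B6_DRA 7 (4198). The fibroblast sum of KO_DRA was lowest in KO_DRA 9 (2437). None of the markers passed with all libraries. Without the library labelled KO_DRA 8, 2 of 4 endothelial markers (Cdh5 and Tek) and Cdh1 passed higher. In the same fit 6 of 9 monocyte and interstitial macrophage, 2 of 6 alveolar macrophage and 3 of 4 eosinophil markers passed lower, and none of the T cell, NK cell, plasmacytoid dendritic cell, neutrophil or fibroblast markers passed. Their part in the values of Ifit1bl1, Mx2 and Ifngr1 was not tested.

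None of the other pathway genes passed between the genotypes with all libraries. Il12a, a chain of interleukin 12, averaged 19.0 ± 7.64 in KO_DRA and 10.2 ± 1.91 in B6_DRA (SD, n = 5 each; log2 fold change 0.92, adjusted p = 0.321 by edgeR). Irf4 had a log2 fold change of -0.71 (adjusted p = 0.349 by edgeR). The other genes with 1 of the 2 smallest p in their list were Il18 (0.56), Stat6 (0.16), Tlr3 (0.14), Tmem173 (-0.29), Socs1 (-0.23), Socs3 (0.15), Tap1 (0.11) and H2-T23 (-0.11), as log2 fold changes. Without the library labelled KO_DRA 8, Il12a passed higher and Irf4 and the kinase gene Ikbke passed lower, and the class I genes stayed at 0 of 8 called.

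**Figure D3:**
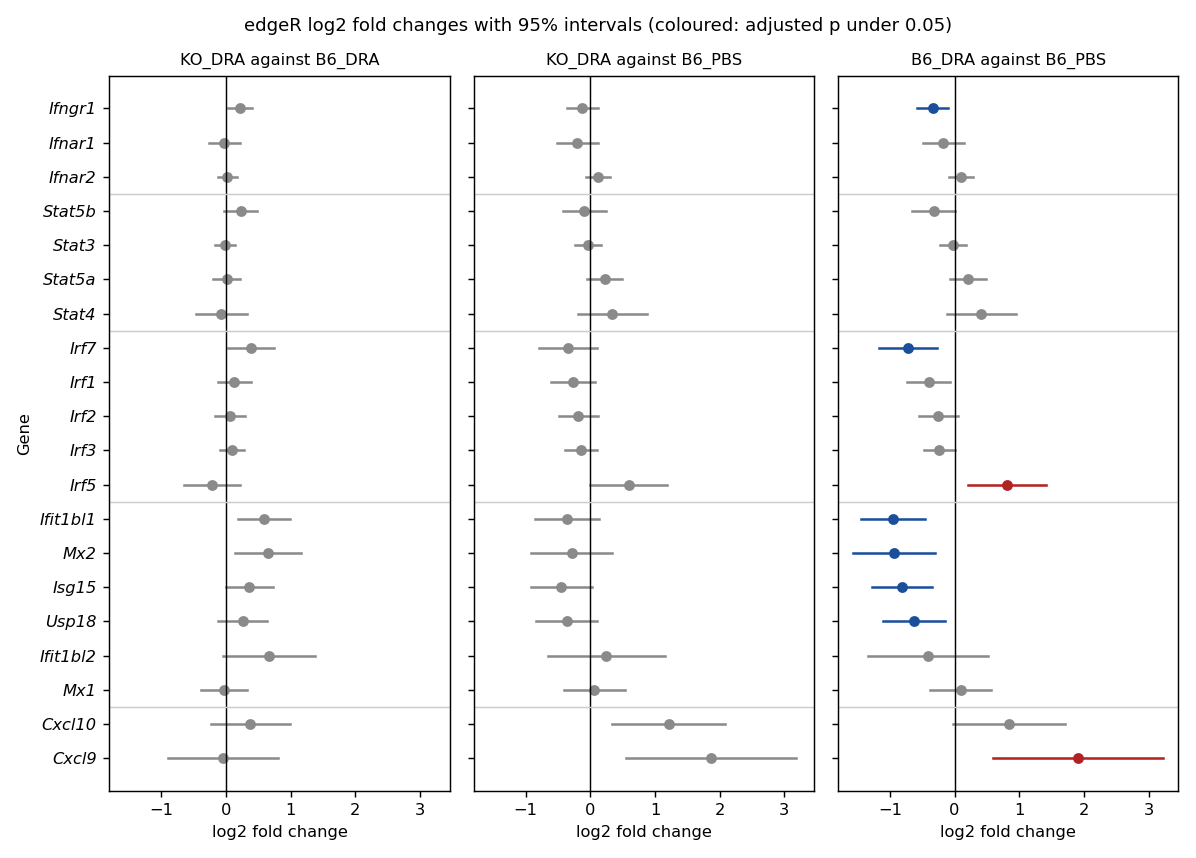
edgeR log2 fold changes (points) with 95% intervals (bars) of 20 of the 21 tested genes by role, in 3 comparisons, blue where lower and red where higher at an adjusted p under 0.05. Coloured points stand only in B6_DRA against B6_PBS, 6 blue and 2 red, and the widest intervals are those of Cxcl9.

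The third comparison set KO_DRA against B6_PBS, so genotype and treatment differ together, and it shares its libraries with both others. None of the 21 genes passed, where 3.01% of all genes passed, each of them higher. By scaled counts 7 of the 25 stood wholly above B6_PBS, against 26% of all genes. They were Cxcl9, Cxcl10, Ifnar2 and Stat5a, and the untested Cxcl11, Ifna1 and Ifnb1, which were at or near background. Of the 25, 1 stood wholly below, against 8.04% of all genes. That gene was Usp18, with 48.1, 59.5, 78.0, 61.3 and 77.3 in KO_DRA, against 78.5 and 80.7 in B6_PBS, a gap smaller than 1 scaled count. The median log2 fold change of the 21 was -0.12, beside 0.02 over all genes.

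The chemokines had the smallest p here. Cxcl9 gave 60.5, 70.9, 35.9, 21.6 and 127 scaled counts in KO_DRA, against 16.4 and 16.5 in B6_PBS (log2 fold change 1.87, SE 0.599, 95% interval 0.56 to 3.18, edgeR adjusted p = 0.126). Cxcl10 gave 37.0, 56.2, 66.4, 32.9 and 88.1 in KO_DRA, against 22.4 and 23.9 in B6_PBS (log2 fold change 1.21, SE 0.399, 95% interval 0.34 to 2.08, edgeR adjusted p = 0.132). Each stood above both PBS libraries in 5 of 5, and they were the 2 of the 21 at an unadjusted p under 0.05. DESeq2 called both, among 8.42% of all genes (adjusted p = 0.0166 for Cxcl9, range over 10 other settings 0.0166 to 0.303, and 0.0468 for Cxcl10, range 0.0468 to 0.387). Without KO_DRA 10 edgeR called Cxcl9, among 11.9% of all genes (log2 fold change 2.02, adjusted p = 0.0493). The induced genes that fell in wild type mice had intervals that spanned 0, among them Isg15 (log2 fold change -0.45, 95% interval -0.91 to 0.0206), Usp18 (-0.36, -0.84 to 0.11), Ifit1bl1 (-0.36, -0.86 to 0.14) and Mx2 (-0.29, -0.91 to 0.34). Without the library labelled KO_DRA 8 none of the 21 passed either.

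None of the other pathway genes passed in this comparison. The 2 genes with the smallest p of each list were Tmem173 (0.80), Tlr9 (0.52), Jak3 (0.20), Socs1 (0.29), Il18r1 (-0.38), Il18 (-0.32), H2-K1 (0.54), H2-T23 (0.44), Irf4 (1.11) and Irf8 (0.25), as log2 fold changes. Monocyte and interstitial macrophage markers passed higher in 3 of 9 (C1qa, C1qb and C1qc, chains of complement C1q), and 0 of 4 endothelial markers passed. Their part in the chemokine values was not tested.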

How the data were processed

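RNA from 12 whole lung samples was measured on a NanoString innate immune panel. Per the labels' protocols, a lobe was homogenised in Trizol. The authors deposited raw counts per probe for 734 endogenous and 20 housekeeping probes with 8 negative and 6 positive controls, with export and background settings not given in the sources used here. They also deposited scaled counts, a signal made from those counts with 1 factor per library (0.815 to 1.40). Which probes set the factors is not stated. R 4.2.0, edgeR and limma were used, per the submitters' processing notes, which give no roles. The point at which the alphabet of probe names restarts was taken as the first housekeeping probe.

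Raw counts were fitted with edgeR 4.0.16 in R 4.3.3: filterByExpr (minimum count 10, minimum total 15), TMM factors and a quasi-likelihood F test from 1 model of all 12 libraries, which has 1 mean for each group and 9 residual degrees of freedom. Tests are two-sided with Benjamini-Hochberg adjustment over the 665 endogenous genes tested and a threshold of 0.05. Each standard error was derived from the fold change and its F value. The fit was tested on simulated data. Alternatives were other size factors, housekeeping or the authors' factors, other filters, DESeq2 1.42.0, limma-voom and limma 3.58.1 on log2(scaled count + 1), 2-group fits and leaving out each library. Labels give no batch, and no replicate number is shared between groups. All 25 symbols matched RefSeq, and 20 had an upstream window.

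The members and lists were chosen with earlier results of these data known. 1 tested member is not reported here by name, though counts and medians include it. The others are named, with values by library for genes past the threshold in any comparison, ligands, chemokines and the 2 largest estimates not past it in each comparison. Other pathway genes are named where past the threshold, or else the smallest p.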

Additional observations from a re-analysis of the deposited data

Results flagged for a closer look

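Irf2 in the library B6_DRA 7 stood apart from its group, at 226 scaled counts, where the other 4 B6_DRA libraries lay between 298 and 327. Its gap to the nearest library was 0.718 of the group's range, above Dixon's 95% critical value of 0.71 for 5 samples. Of 47 groups of 5 examined this way, 1 was set apart, and chance sets apart about 5% of groups.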

How the results depend on the processing

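In B6_DRA against B6_PBS the 8 calls became 6 to 11 under the 10 other settings that keep all libraries of the comparison, and 0 to 10 when 1 library was left out (2, 4, 10, 3 and 3 without B6_DRA 3, 4, 5, 6 and 7, and 0 without either B6_PBS library). Housekeeping scaling, the authors' factors and limma on scaled values kept Cxcl9, Irf5, Ifit1bl1, Irf7, Isg15 and Mx2 and left out Ifngr1 and Usp18. Irf1 was called lower with library size alone, with no filter on low counts, with DESeq2 and in the 2-group fit. The 2-group fit also called Cxcl10 higher. In KO_DRA against B6_DRA the 0 calls became 0 to 3 when 1 library was left out, with 3 without the library labelled KO_DRA 8. In KO_DRA against B6_PBS they became 2 with DESeq2 and 0 to 1 when 1 library was left out. The cause was not tested, except that leaving out a library also leaves fewer samples. With library size alone the median of all genes was -0.63, 0.34 and -0.29 in the 3 comparisons, against 0.01, 0.01 and 0.02 with TMM, and it gave 4 genes called in the third, where 20 were called with TMM.

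Signs changed only for genes past the test in neither fit, as log2 fold changes. With library size alone these were Ifnar2 (-0.54), Mx1 (-0.51), Stat4 (-0.24) and Stat5a (-0.43) in B6_DRA against B6_PBS, Cxcl9 (0.35), Ifnar1 (0.29), Irf5 (0.14), Mx1 (0.26), Stat3 (0.33) and Stat4 (0.27) in KO_DRA against B6_DRA, and Ifit1bl2 (-0.0374), Ifnar2 (-0.18), Mx1 (-0.25) and Stat5a (-0.10) in KO_DRA against B6_PBS. Stat3 turned with housekeeping scaling, the authors' factors and limma on scaled values in B6_DRA against B6_PBS (0.0533, 0.0739, 0.0706) and in KO_DRA against B6_PBS (0.0464, 0.036, 0.0366). Stat5a turned with the authors' factors and limma in KO_DRA against B6_DRA (-0.00882, -0.0119). With 1 library left out the ranges that crossed 0 were Stat3 -0.10 to 0.00945 and Mx1 -0.0132 to 0.19 in B6_DRA against B6_PBS, and Mx1 -0.13 to 0.0741, Stat3 -0.0417 to 0.018, Ifnar1 -0.0756 to 0.0694, Stat5a -0.0346 to 0.0604, Cxcl9 -0.46 to 0.18, Ifnar2 -0.00369 to 0.0434 and Stat4 -0.16 to 0.0294 in KO_DRA against B6_DRA. No paired analysis was possible because no replicate number is shared between groups. With 2 PBS libraries, small changes in genes with low or widely spread counts could be missed. With ligand counts near the negative controls, ligand changes were beyond reach.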
